A study of Homo sapiens with 12 samples.

Results

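SOX2 was knocked down in NTera-2, a human embryonal carcinoma cell line that is pluripotent and can differentiate, and the response was read across all genes. The comparison rested on 6 of the 12 arrays of the series, 3 from cells given an siRNA against SOX2 (siSOX2) and 3 from cells given an siRNA with no intended target, the Ambion Silencer Select Negative Control #1. All 6 came from NTera-2 cells at passage 40 to 50, seeded 24 hours ahead, transfected for 6 hours with Lipofectamine RNAiMAX in Opti-MEM I, and harvested after a further 72 hours in serum-containing growth medium. RNA was measured on the Affymetrix Human Gene 1.0 ST array, and each of 18404 genes was represented by 1 probe set. The other 6 arrays came from 2102Ep, an embryonal carcinoma line that resists differentiation, with the same pair of siRNAs. By the methods of the paper the amount of siRNA was lower in 2102Ep than in NTera-2. The lipid, Lipofectamine 2000, and the passages, 35 to 50, differed as well. The 2102Ep arrays entered the same model, so each SE and p-value rests on a spread per gene shared by all 12 arrays.

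A single siRNA against SOX2 was used, so effects of that siRNA on other transcripts cannot be told apart from loss of SOX2. Nothing in the labels says which cultures were handled together. The cells were measured in bulk, so fewer cells of a kind and less RNA per cell cannot be told apart.

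SOX2 is a transcription factor that binds DNA together with OCT4 in pluripotent cells and maintains, with OCT4 and NANOG, the expression of genes of the undifferentiated state. FGF and Nodal signals feed into that state in human pluripotent cells, while Wnt and BMP signals direct cells towards the primitive streak, from which mesoderm and endoderm arise. SOX2 also has a second known role as a factor of the neural lineage, and NTera-2 cells are known for giving rise to neurons after treatment with retinoic acid.

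SOX2 itself gave a log2 signal of 12.51, 12.52 and 12.63 on the control arrays and of 11.92, 11.95 and 11.86 on the siSOX2 arrays. The groups did not overlap. The change was -0.64 ± 0.117 (log2, SE; adjusted p = 0.00225, limma), so that 64% of the control signal was left, and SOX2 did not reach the 2-fold threshold used below to call a gene. In 2102Ep the change of SOX2 was -3.13. These are array signals of RNA. By qRT-PCR the paper reported a lower share of SOX2 mRNA left in NTera-2 than the array gave. By Western blot it reported no detectable SOX2 protein after siSOX2 in either line.

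A gene was called when its adjusted p was 0.05 or less, its unadjusted p was 0.01 or less and its signal doubled or halved, a log2 change of 1 in size. In NTera-2 57 genes rose and 64 fell, which is 0.31% and 0.348% of the genes tested and 0.657% together. At any fold, 909 genes passed the adjusted p (4.94%), 544 of them higher and 365 lower. Arrays of the groups did not overlap for any of the 121 called genes, and this held for 21.3% of all genes. The median change over all genes was 0.04 and the median SE was 0.121. Replicate 3 of siSOX2 stood apart, with a median over genes of 8.14 against 7.99 to 8.01 on the other 5 arrays, and without it 46 genes rose and 77 fell.

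**Figure D1:**
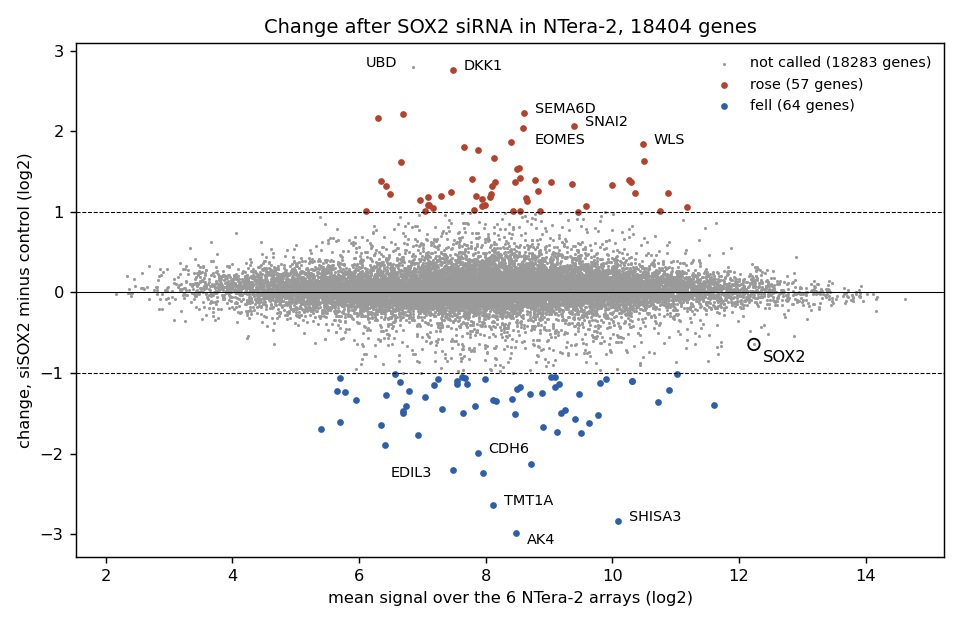
Change of each of 18404 genes in NTera-2 (siSOX2 minus control, log2, vertical axis) against its mean signal over the 6 arrays (log2, horizontal axis). The 57 genes that rose are red, the 64 that fell are blue, the others are grey, the dashed lines mark a 2-fold change, and SOX2 is circled at -0.64. The grey point labelled UBD lies above the threshold but did not pass the test.

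Placed by what their products are known to do, a grouping made after their values were seen, 18 of the 121 called genes encode transcription or chromatin regulators, of which 11 rose and 7 fell. A further 19 act in growth factor and morphogen signalling (10 rose, 9 fell), 11 in axon guidance and cell adhesion (7 rose, 4 fell), and 13 encode neuronal, synaptic or neuropeptide proteins (6 rose, 7 fell). Matrix and secreted proteins made up 12 (5 rose, 7 fell), G protein-coupled receptors and their regulators 8 (3 rose, 5 fell), enzymes, carriers and ion transport proteins 16 (6 rose, 10 fell), and innate immune proteins 3 (0 rose, 3 fell). The remaining 21 (9 rose, 12 fell) have other or less well known products. Only called genes were placed in classes. The share of each class among all genes was not counted, so these counts do not show whether any class was over-represented.

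To show what sequence lies just before the start of some of them, the 250 bases upstream of the start listed first for each gene in RefSeq (GRCh38.p14) were searched on both strands for the core of SOX binding motifs (CATTGT, or ACAATG on the other strand) and for the core of TCF/LEF motifs (CTTTGA, or TCAAAG), the latter being bound by nuclear effectors of Wnt signalling. Matches of the pair can share no more than an end base. A promoter was found for 44 of the genes that rose, 52 of those that fell and 14228 of all genes. The SOX core was present in 9.09% of the promoters of genes that rose, 7.69% of those that fell and 6.5% of all. The TCF/LEF core was present in 11.4%, 19.2% and 9.64%. These are descriptions of letters in a window, and no binding was measured.
The windows of 60 bases below, written 5′ to 3′ on the strand of the gene with the motif in capitals, were chosen because the genes are among the larger changes or are streak genes, and the promoters of DKK1 and PPP1R17 each hold a further TCF/LEF match that is not shown. The first 3 hold the TCF/LEF core and belong to genes that rose. That choice does not follow the counts, since the core was in 19.2% of the promoters of genes that fell and 11.4% of those that rose. Among genes that fell, NFE2L3, CCDC172 and SEMG1 hold it too and are not shown. Of the last 3, which hold the SOX core, GRHL3 rose and SHISA3 and PPP1R17 fell.
DKK1, chr10:52314105-52314164, plus strand: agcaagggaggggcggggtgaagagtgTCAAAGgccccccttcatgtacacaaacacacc
HAND1, chr5:154478240-154478299, minus strand: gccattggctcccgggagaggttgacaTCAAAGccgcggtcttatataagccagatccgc
MIXL1, chr1:226223561-226223620, plus strand: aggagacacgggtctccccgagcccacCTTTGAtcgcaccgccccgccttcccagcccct
GRHL3, chr1:24319107-24319166, plus strand: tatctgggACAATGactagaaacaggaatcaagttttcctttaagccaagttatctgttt
SHISA3, chr4:42397406-42397465, plus strand: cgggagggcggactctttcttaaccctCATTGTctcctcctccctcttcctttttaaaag
PPP1R17, chr7:31687040-31687099, plus strand: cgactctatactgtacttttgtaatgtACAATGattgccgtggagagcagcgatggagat

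The first question was what became of the undifferentiated state. Some genes of pluripotent cells fell, the others stayed below the threshold, and none of them rose by 2-fold. Of 35 measured members of a pluripotency list 5 fell (14.3%), and the median change was -0.23, against 0.04 over all genes. At any fold 14 passed the adjusted p downwards and 1 upwards, the latter being TFAP2C (0.43), which marks germ cell and trophoblast precursors. Of the 35, 10 had a change above 0 and 25 below it. Those that did not pass included LIN28A (0.44), SALL4 (0.17), LIN28B (0.16), PODXL (-0.01), TRIM71 (-0.03), CD9 (-0.13) and DNMT3B (-0.20). The core factors OCT4 and NANOG were not analysed here.

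DPPA3, a chromatin protein of oocytes and naive pluripotent cells, gave 9.65, 10.83 and 10.09 on the control arrays and 8.62, 8.47 and 8.80 on the siSOX2 arrays. Every siSOX2 array lay below every control array, and the controls were spread widely. The change was -1.56 ± 0.228 (SE; adjusted p = 3.19e-04), and a second probe set of DPPA3 gave -0.96 (adjusted p = 0.26). PRDM14, a repressor that keeps germ cells and pluripotent cells from differentiating, went from 9.84, 10.06 and 9.89 to 8.52, 8.18 and 8.60, a change of -1.50. NFE2L3, a CNC-bZIP factor abundant in these cells, went from 10.37, 10.54 and 10.41 to 8.90, 8.76 and 8.81, a change of -1.62. Both groups were tight for NFE2L3, and the gap between them exceeded 1 log2 unit.

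The remaining members that fell were NR5A2, a nuclear receptor able to sustain OCT4 expression (-1.09), and CRIPTO, the co-receptor of Nodal (-1.01). CRIPTO stood at 11.31, 11.82 and 11.45 in control cells and at 10.64, 10.12 and 10.78 after siSOX2 (adjusted p = 0.0228). Its call was lost with an intensity trend and robust prior (-1.01), without control replicate 2 (-0.87) or 3 (-1.05), and without siSOX2 replicate 1 (-1.08) or 2 (-0.82). NR5A2 was under 2-fold without control replicate 2 (-0.92).

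Smaller shifts in this list passed the adjusted p but not the fold threshold. They included L1TD1, an RNA-binding protein of pluripotent cells (-0.79), KLF4, a reprogramming factor (-0.73), FGF4, a ligand gene long known as a joint target of SOX2 and OCT4 (-0.78), and the telomere protein gene TERF1 (-0.66). PHC1 (-0.54), GDF3 (-0.51) and DPPA4 (-0.50) followed. Among the other SOX genes, 0 of 19 were called, and SOX21, a SoxB2 factor, was lowest at -0.96 (adjusted p = 2.39e-04), which passed 2-fold on median centring (-1.02). SOX3, the gene closest to SOX2 in the SoxB1 group, stood at 0.40 (adjusted p = 0.0763), SOX9 at 0.23 and SOX4 at -0.22.

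The ERK pathway carries the FGF signal inside the cell and is damped by feedback inhibitors that it induces itself. None of 26 FGF ligand and receptor genes was called, with 0 rises and 0 falls. Of 22 feedback and target genes 3 fell (13.6%), 0 rose, and the median change was -0.32. At any fold 9 passed the adjusted p, all of them lower, and 19 of the 22 had a change below 0.

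DUSP6, the phosphatase that inactivates ERK, gave 9.73, 9.81 and 9.68 in control cells and 8.14, 7.76 and 8.32 after siSOX2. These groups lay more than 1 log2 unit apart (change -1.67 ± 0.152, SE; adjusted p = 2.25e-06). SPRY1, a Sprouty inhibitor of receptor tyrosine kinase signalling, went from 9.34, 9.92 and 9.59 to 8.52, 8.46 and 8.72. ETV4, an ETS factor induced by FGF, went from 10.67, 11.07 and 10.84 to 9.67, 9.84 and 9.78.

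The changes of SPRY1 and ETV4 were -1.05 and -1.10, and both came under 2-fold without control replicate 2 (-0.90 and -0.99). SPRY1 did so without siSOX2 replicate 2 as well. IL17RD, the FGF pathway inhibitor also known as SEF, changed by -0.74, the ETS factor gene ETV1 by -0.74, MYC by -0.61, SPRY2 by -0.55, FOS by -0.54 and PHLDA1 by -0.38. Among FGF genes 5 passed the adjusted p and all were lower. These were FGF12 (-0.96), FGF16 (-0.86), FGF19 (-0.84), FGF4 and FGF13 (-0.76). KITLG, the ligand of the receptor KIT on germ cells, fell by 1.07, a call lost without siSOX2 replicate 2 (-0.88) and without control replicate 3. SHC3, a neuronal adaptor of receptor tyrosine kinases, fell by 1.17.

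The next question was whether genes of differentiated derivatives appeared. Primitive streak and early mesoderm genes rose in part. Of 27 measured 6 rose (22.2%), 0 fell, and the median change was 0.16. HAND1, a bHLH factor of extraembryonic and lateral mesoderm and of trophoblast, gave 7.05, 7.08 and 6.89 in control cells and 8.72, 8.78 and 8.81 after siSOX2. The siSOX2 arrays lay within 0.1 of each other and far from the controls (change 1.76 ± 0.0958, SE; adjusted p = 7.45e-09).

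EOMES, a T-box factor that specifies definitive endoderm and cardiac mesoderm, went from 7.58, 7.88 and 7.27 to 9.55, 9.72 and 9.58. SNAI2, a zinc finger repressor of epithelial genes in mesoderm and neural crest, went from 8.13, 8.75 and 8.21 to 10.23, 10.64 and 10.41. MIXL1, a homeobox factor of the streak, went from 8.03, 7.97 and 8.17 to 8.92, 9.27 and 9.49. All 3 sets of arrays were separate, with changes of 2.04, 2.07 and 1.17.

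The apelin receptor gene APLNR, expressed by migrating mesendoderm, rose by 1.42, from 7.51, 8.26 and 7.70 to 9.14, 9.38 and 9.21. CER1, a secreted inhibitor of Nodal and BMP ligands, went from 7.02, 6.63 and 6.46 to 7.66, 7.72 and 8.31. The groups for CER1 were separate, but without siSOX2 replicate 3, its highest array, the change of 1.19 became 0.99 and the call was lost. LHX1 (0.59) and GATA6 (0.49) passed the adjusted p only, and KDR, the VEGF receptor of early mesoderm, stood at -0.70. At any fold 8 of the 27 genes passed the adjusted p upwards and 1 downwards. Those that did not pass included TBXT (T/Brachyury, 0.40), SNAI1 (0.27), MSGN1 (0.14), TBX6 (0.04), GSC (0.03), MESP1 (-0.03) and EVX1 (-0.05).

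Markers of other tissues were counted in the same way. Of 15 endoderm genes CER1 alone rose, of 19 trophoblast and amnion genes HAND1 alone rose, with GATA3, a trophoblast factor, at 0.80, and 0 of 26 neural ectoderm factors were called, with HESX1, a forebrain homeobox gene, lowest at -0.99. GBX2, of the hindbrain boundary, stood at -0.83 and LHX2 at -0.58. The endoderm genes CXCR4 (0.49) and AFP (0.22) were not called. Of 13 muscle and heart genes 0 were called, with ACTC1 at 0.67, MYL4 at 0.86, TTN at -0.89 and TNNC1 at 0.36. Of 19 neural crest genes SNAI2, the retinoid receptor gene RXRG (1.15) and EYA1, a coactivator of placode and crest development (1.22), rose (15.8%, median 0.13), while ETS1 stood at -0.95. The summed linear signal of the neural crest genes was 4368 to 4550 on the control and 5692 to 6307 on the siSOX2 arrays. It was 2159 to 2523 and 2537 to 2825 for the endoderm genes, 10721 to 11740 and 12304 to 13967 for the trophoblast and amnion genes, and 1717 to 1854 and 1909 to 2013 for the muscle and heart genes. None of these sums overlapped between the groups, and single genes did not overlap in 21.3% of all cases. The neural crest, endoderm and trophoblast and amnion sums include the called genes named above. A linear sum weighs bright genes most, and siSOX2 replicate 3 was higher over genes as a whole. The part of these sums in other results was not tested.

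Markers of other cell types were measured beside these. Of 11 leukocyte genes 0 passed the adjusted p, and their summed linear signal was 1035 to 1153 on the control arrays and 934 to 1141 on the siSOX2 arrays. Their smallest adjusted p belonged to LYZ (0.24), CD68 (-0.25), CD2 (0.18) and MS4A1 (0.15). Of 12 fibroblast genes POSTN alone fell, 9 had a change above 0, the median was 0.26, and 3 were higher and 2 lower past the adjusted p. Their summed signal, which the brightest members dominate, was 4145 to 4459 on the control arrays and 3263 to 3571 on the siSOX2 arrays, with no overlap. Of 12 endothelial genes ANGPT1 alone fell, with ANGPT2 at 0.57 and FLT1 at -0.58, and the sum was 2739 to 3171 on the control and 2358 to 2803 on the siSOX2 arrays. COL1A2 (0.68) and LUM (0.74) stood higher and THY1 (-0.86) lower at any fold. The part of these markers in other results was not tested. Of 29 proliferation genes 0 passed the adjusted p, with TYMS at 0.16, MKI67 at 0.23, MCM2 at 0.15 and MCM6 at 0.13. Of 18 p53 targets 0 were called, with TP53INP1 at 0.46, FAS at -0.47, PLK3 at -0.40 and TNFRSF10B at -0.32.

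**Figure D2:**
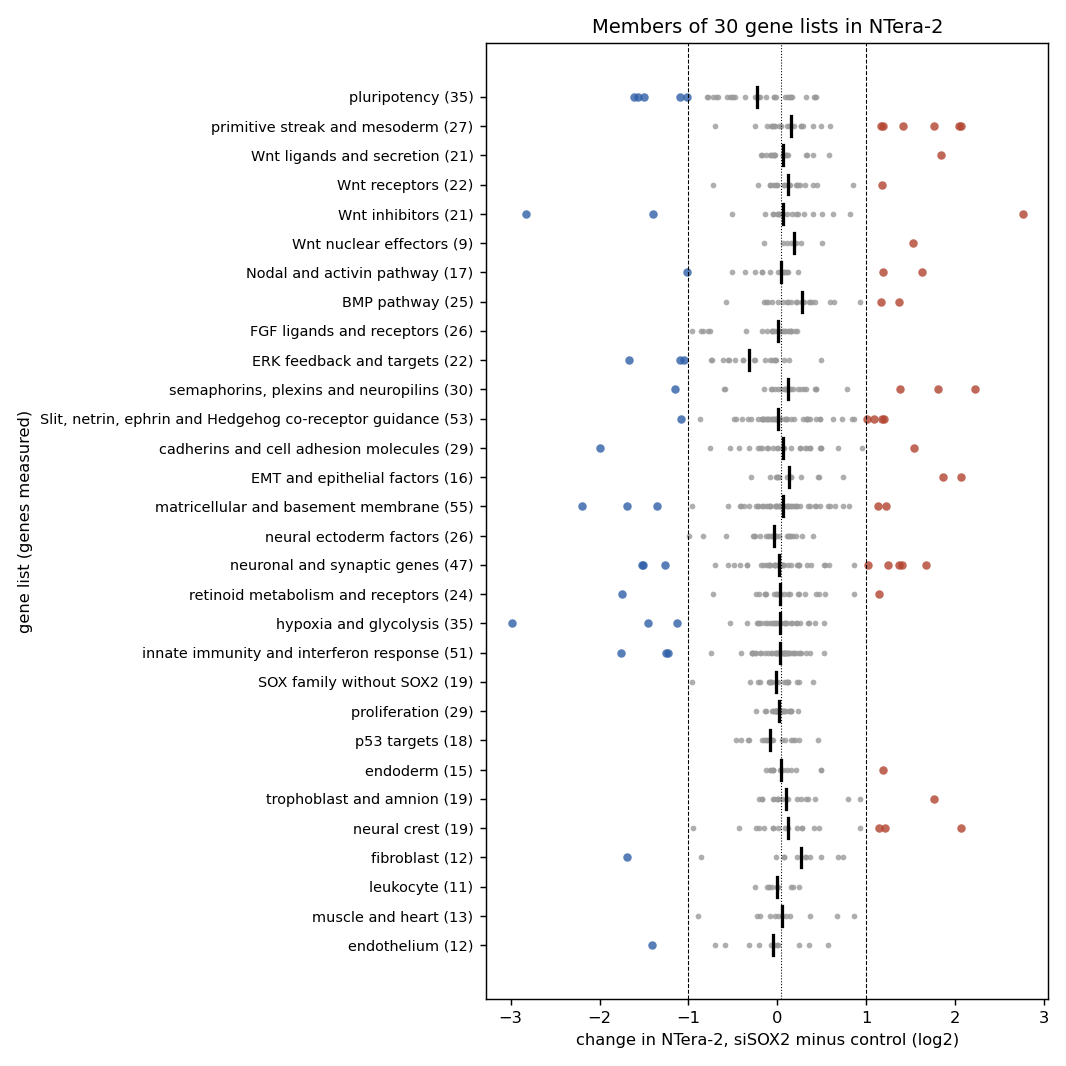
Change in NTera-2 (siSOX2 minus control, log2, horizontal axis) of every measured member of 30 gene lists (vertical axis, number measured in brackets), with genes that rose in red, genes that fell in blue, others in grey and the list median as a black bar. The dashed lines mark 2-fold and the dotted line the median of all genes, 0.04. The ERK feedback list has its median at -0.32 and the pluripotency list at -0.23, the lowest of the 30, and the BMP pathway list has the highest at 0.28.

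Wnt signals act through Frizzled receptors and LRP co-receptors, are limited by secreted inhibitors and end at TCF/LEF factors. Of the Wnt inhibitors, DKK1 had the largest rise of any called gene, while SHISA3 and SFRP2 fell. DKK1, which blocks the LRP co-receptor and is itself a Wnt target, gave 6.07, 6.12 and 6.12 in control cells and 9.03, 8.96 and 8.62 after siSOX2, a change of 2.77 ± 0.119 (SE; adjusted p = 3.04e-10). The controls were almost identical, and the lowest siSOX2 array lay more than 2 log2 units above them.

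SHISA3, which holds back the maturation of Wnt and FGF receptors, went the other way, from 11.56, 11.60 and 11.38 to 8.52, 8.83 and 8.70. Its change was -2.83 ± 0.113 (SE; adjusted p = 1.83e-10), which left 14.1% of the control signal. SFRP2, a secreted protein that binds Wnt ligands, went from 12.09, 12.45 and 12.36 to 10.91, 10.82 and 10.98, a change of -1.40. Of 21 inhibitors 1 rose and 2 fell, the median was 0.07, and FRZB, a relative of SFRP2, stood at 0.82 (adjusted p = 2.42e-04).

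Upstream and downstream of these inhibitors single genes rose. WLS, which carries Wnt ligands to the cell surface, rose by 1.84, from 9.72, 9.29 and 9.65 to 11.32, 11.36 and 11.51. None of the Wnt ligand genes was called, and the nearest were WNT2B (0.59), WNT5A (0.41) and WNT8A (0.32). LGR5, a receptor of R-spondins and a Wnt target, rose by 1.18, from 6.47, 6.43 and 6.59 to 7.79, 7.50 and 7.74. LGR4, its relative, stood at -0.72, and the receptor genes ROR2 at 0.86 and FZD4 at 0.44. LEF1, a nuclear effector, rose by 1.53, from 7.73, 7.78 and 7.68 to 9.22, 9.45 and 9.12. The groups were separate for WLS, LGR5 and LEF1. The Wnt target SP5 stood at 0.50, PYGO2 at 0.26 and TCF7L2 at 0.21. Of the inhibitor list, NKD1 (0.30), RNF43 (0.17), AXIN2 (0.009) and ZNRF3 (-0.05) did not pass the adjusted p, nor did NOTUM (-0.03) of the ligand and secretion list.

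In the TGF-beta superfamily inhibitors and a ligand rose. FST, the activin-binding protein follistatin, went from 9.71, 9.54 and 9.78 to 11.32, 11.20 and 11.41, a change of 1.63. GREM1, an antagonist of BMP ligands, went from 8.43, 8.28 and 8.33 to 9.75, 9.82 and 9.59, a change of 1.38. BMP2, one of the ligands, went from 7.59, 7.18 and 7.31 to 8.47, 8.66 and 8.45, a change of 1.17. The groups were separate for all 3.

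Of 25 BMP pathway genes 2 rose and 0 fell (median 0.28), and of 17 Nodal and activin genes FST and CER1 rose and CRIPTO fell (median 0.04). Below the fold threshold, the BMP target MSX2 stood at 0.93, the antagonist NOG at 0.64, ID3 at 0.59 and SMAD7, an inhibitory SMAD, at -0.57. Members of the BMP list that did not pass the adjusted p included SMAD6 (0.43), ID1 (0.28), MSX1 (0.28), BAMBI (0.23), ID4 (0.13) and ID2 (-0.10). Of the Hedgehog pathway, BOC, a co-receptor (1.20), and DISP1, which releases the ligand (1.09), rose, and the receptor and target gene PTCH1 stood at 0.86 (adjusted p = 8.46e-05). CDON, the relative of BOC, stood at 0.73 and HHIP at -0.47.

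Semaphorins and their plexin and neuropilin receptors guide axons and migrating cells. SEMA6D, a transmembrane semaphorin, had the next largest rise after DKK1 in NTera-2, from 7.23, 7.61 and 7.64 to 9.78, 9.58 and 9.81 (2.23 ± 0.145, SE; adjusted p = 5.71e-08). PLXNA2, a plexin receptor, went from 6.71, 6.73 and 6.82 to 8.63, 8.35 and 8.72, a change of 1.81. SEMA3C, a secreted semaphorin, went from 5.83, 5.60 and 5.52 to 7.02, 6.96 and 7.12, a change of 1.39. The groups were far apart for these genes.

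NRP1, the neuropilin that binds class 3 semaphorins and VEGF, fell by 1.15, from 7.58, 8.01 and 7.69 to 6.52, 6.63 and 6.68. Of 30 genes of this family 3 rose (10%) and 1 fell (3.33%), and SEMA3E stood at 0.78. Of 53 Slit, netrin, ephrin and Hedgehog co-receptor genes 4 rose (7.55%) and DSCAM, a netrin receptor, fell by 1.08, while the median of the list was 0.01. SLIT2, a repulsive ligand, rose by 1.18, and EPHB3, an ephrin receptor, by 1.01. EPHB3 was under 2-fold on median centring (0.95), with quantile normalization again (0.93) and without siSOX2 replicate 3 (0.96) or control replicate 3 (0.97).

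Of 29 cadherin and adhesion molecule genes 1 rose and 1 fell (3.45% each), and the median was 0.06. CDH6, a cadherin of kidney and neural crest, went from 8.91, 8.85 and 8.86 to 6.81, 6.80 and 7.03, a change of -1.99 ± 0.109 (SE; adjusted p = 7.45e-09). CDH1, the epithelial E-cadherin, went from 7.48, 8.09 and 7.68 to 9.23, 9.13 and 9.50, a change of 1.54. The mesenchymal cadherin gene CDH11 stood at 0.95 and CDH2, N-cadherin, at -0.76, both with a separate set of arrays but under 2-fold. GRHL3, a grainyhead factor of surface epithelium, rose by 1.87, from 7.44, 7.64 and 7.33 to 9.19, 9.32 and 9.50, and ELF3, an epithelial ETS factor, stood at 0.74 and TWIST1, a mesenchymal factor, at 0.47. SNAI2, a known repressor of CDH1, and CDH1 both rose.

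Genes of neurons moved both ways. Of 47 neuronal and synaptic genes 5 rose and 3 fell, and the median was 0.02. GAD1, which makes the inhibitory transmitter GABA, went from 7.05, 7.03 and 7.16 to 8.26, 8.51 and 8.69, a change of 1.41. LGI1, a secreted synaptic protein, went from 7.03, 7.59 and 7.27 to 8.87, 8.89 and 9.14, a change of 1.67. LRRTM1, a synaptic adhesion protein, rose by 1.37, the calcium buffer gene CALB1 by 1.25 and the GABA receptor subunit gene GABRA3 by 1.03.

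FEZ1, an axonal transport adaptor, went from 9.21, 9.12 and 9.30 to 7.87, 7.57 and 7.68, a change of -1.51. NTS, the neuropeptide neurotensin, fell by 1.26, and VSNL1, a calcium sensor of neurons, by 1.52, the latter from widely spread controls of 10.08, 11.09 and 10.44 to 9.03, 8.62 and 9.40. PPP1R17, a phosphatase inhibitor known from Purkinje cells, fell by 1.73, from 9.90, 10.15 and 9.94 to 8.11, 8.36 and 8.33. GABRA3 lost its call on median centring (0.97), with quantile normalization again and without control replicate 1 (0.88), control replicate 3 or siSOX2 replicate 3.

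Matrix genes moved both ways. EDIL3, an integrin-binding matrix protein of embryonic vessels, went from 8.35, 8.77 and 8.61 to 6.46, 6.04 and 6.63, a change of -2.20 ± 0.196 (SE; adjusted p = 1.85e-06). POSTN, periostin, went from 6.46, 5.81 and 6.46 to 4.27, 4.74 and 4.64, a change of -1.69. TIMP4, an inhibitor of metalloproteinases, fell by 1.36. SPARCL1, a matricellular protein, rose by 1.22 and MFAP4, of elastic fibres, by 1.13, and of the 55 genes in the list 2 rose and 3 fell. MFAP4 was under 2-fold without control replicate 1 (0.93). Tenascin-C (TNC) stood at -0.96 and fibronectin (FN1) at 0.80.

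Retinoic acid is the classical inducer of differentiation in NTera-2, and of 24 genes of its metabolism and receptors 1 rose and 1 fell. LRAT, which stores retinol as its ester, went from 10.33, 10.51 and 10.31 to 8.57, 8.54 and 8.78, a change of -1.75 ± 0.111 (SE; adjusted p = 5.33e-08). RXRG, a receptor partner, went from 6.59, 6.45 and 6.12 to 7.43, 7.52 and 7.64. CYP26A1, which degrades retinoic acid and is one of its targets, stood at 0.87 and ALDH1A3, which makes it, at -0.72, both past the adjusted p and under 2-fold.

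AK4, a mitochondrial adenylate kinase induced by hypoxia, had the largest fall by the probe set used, from 9.78, 10.26 and 9.90 to 6.83, 6.59 and 7.54 (-2.99 ± 0.187, SE; adjusted p = 5.03e-08). A second probe set of AK4 changed by -0.60 (adjusted p = 0.0136), which is under 2-fold, so by it alone AK4 would not be called. The probe sets had the same direction and not the same size. With their mean AK4 stood at -1.80, a smaller fall than those of SHISA3 and TMT1A. Which probe set reads AK4 more truly was not tested. ADM, the vasodilator peptide adrenomedullin, went from 9.96, 9.91 and 10.05 to 8.59, 8.51 and 8.46, a change of -1.45. BHLHE41, a circadian and hypoxia-induced repressor, went from 9.73, 9.74 and 9.71 to 8.63, 8.63 and 8.53, a change of -1.13. The arrays within each group were close for ADM and BHLHE41. With AK4 counted by the probe set used, these were 3 of 35 hypoxia and glycolysis genes (8.57%). The median of the list was 0.03, and EGLN3, an oxygen sensor induced by hypoxia, stood at 0.52.

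Of 51 innate immunity and interferon genes 3 were lower and none higher past the thresholds (median 0.03). TRIM22, an antiviral ubiquitin ligase, went from 8.01, 7.42 and 8.01 to 6.03, 6.04 and 6.07, a change of -1.76. SAMHD1, which lowers the nucleotide pool, went from 9.20, 9.25 and 9.54 to 8.08, 7.83 and 8.31, a change of -1.25. TLR4, the receptor of bacterial lipopolysaccharide, went from 6.33, 6.61 and 6.23 to 5.36, 4.91 and 5.21, a change of -1.23. The groups were separate for all 3, and the interferon-induced genes IFITM2 (-0.74) and IFITM1 (-0.41) were the others past the adjusted p.

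Several of the largest changes were in genes of no list. DNAJC15, a mitochondrial co-chaperone, went from 5.57, 5.40 and 5.80 to 7.98, 7.67 and 7.76, a change of 2.21. ALPK2, an alpha kinase, went from 5.30, 5.30 and 5.07 to 7.50, 6.87 and 7.79, a change of 2.16. TMT1A, a thiol methyltransferase formerly named METTL7A, went from 9.07, 9.86 and 9.39 to 6.90, 6.62 and 6.89, a change of -2.64. The groups were more than 1 log2 unit apart for these genes.

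TM4SF18, a tetraspan membrane protein, went from 8.92, 9.14 and 9.18 to 6.93, 6.52 and 7.06, a change of -2.24. HHLA1 went from 9.41, 10.19 and 9.75 to 7.48, 7.65 and 7.81, a change of -2.13. SEMG1, semenogelin, went from 7.37, 7.31 and 7.39 to 5.88, 5.18 and 5.33, a change of -1.89. None of these groups overlapped. Among G protein-coupled receptors, APLNR and FSHR, the receptor of follicle-stimulating hormone (1.01), rose, while GRPR (-1.12), GPR141 (-1.22), GPR160 (-1.30), MAS1 (-1.61) and the olfactory receptor OR52A1 (-1.27) fell. FSHR lost its call under 4 of 18 settings (0.84 without siSOX2 replicate 3), OR52A1 without control replicate 2 (-0.97) and GRPR without siSOX2 replicate 1 (-0.99).

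**Figure D3:**
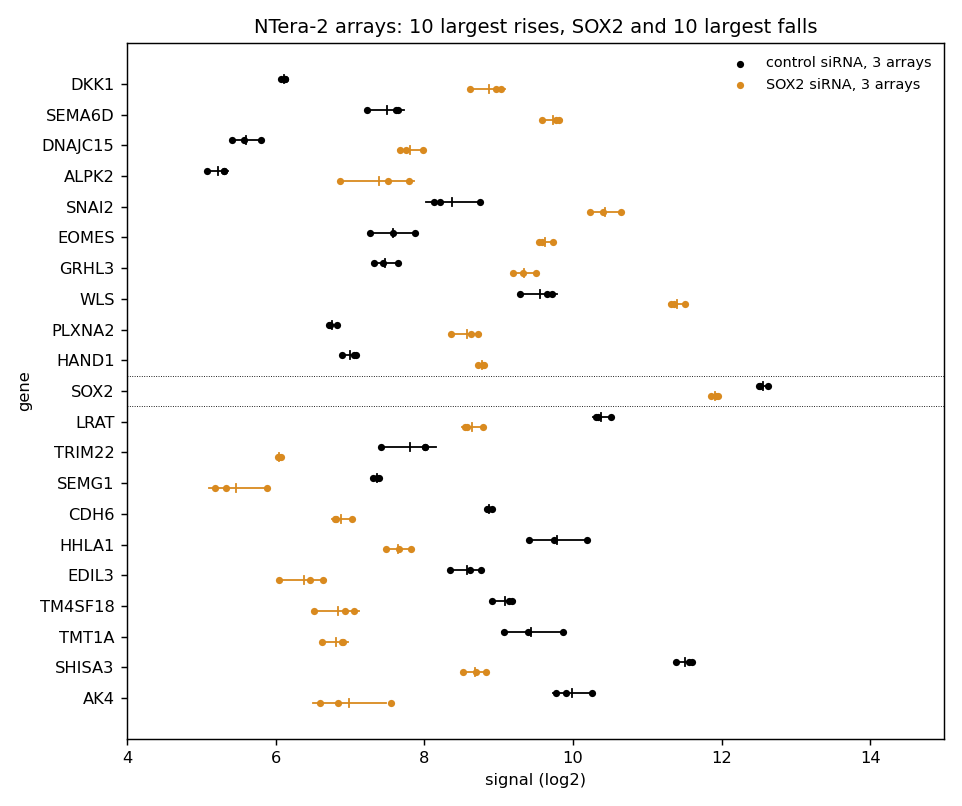
Log2 signal (horizontal axis) on each NTera-2 array of the 10 genes with the largest rise, SOX2 and the 10 genes with the largest fall (vertical axis), with control arrays in black, siSOX2 arrays in orange, and the mean and SD of 3 arrays as a tick and a bar. The groups are separate for every gene shown, and SOX2 has the narrowest gap, 12.51 to 12.63 against 11.86 to 11.95.

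The remaining genes that rose lay between 1.00 and 1.61. They comprised the neogenin relative PRTG (1.40), the selenium carrier SELENOP (1.40), the carbonic anhydrase relative CA11 (1.38), AHNAK (1.37), RGS5 (1.34), the calcium pump ATP2B4 (1.33), CDA (1.33), SAMD3 (1.33), SESN3 (1.26), FOXO4 (1.24) and FABP3 (1.23). TCP11L2 (1.61) headed them, and PAMR1 (1.09), YPEL2 (1.08), VAMP8 (1.07), NFATC2 (1.07), PKDCC (1.06), SVEP1 (1.04), GPRIN3 (1.02), MBNL3 (1.01), PDE1B (1.01), CITED2 (1.01) and the sodium pump subunit ATP1B2 (1.00) closed them. Of 18 alternative settings MBNL3 lost its call under 6, ATP1B2, CITED2 and GPRIN3 under 5, PDE1B and SVEP1 under 4, PAMR1, PKDCC and VAMP8 under 2 and NFATC2 under 1, with a lowest value of 0.90 for PDE1B and GPRIN3.

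The remaining genes that fell lay between -1.01 and -1.65. They comprised CCDC172 (-1.65), CFAP95 (-1.50), TMEM266 (-1.49), CCDC141 (-1.47), the cartilage protein CNMD (-1.45), SLCO5A1 (-1.41), the TIE2 ligand ANGPT1 (-1.41), TPTEP1 (-1.35), PNMA2 (-1.33), the blood group gene RHD (-1.33), ARSL (-1.32), LHFPL4 (-1.25), DYNAP (-1.22), MID1 (-1.21), AP1S2 (-1.20) and IQSEC2 (-1.17). GMPR (-1.14), ENTREP1 (-1.13), PIPOX (-1.12), TRIB2 (-1.09), ST6GAL2 (-1.08), LRRN1 (-1.07), PLAAT3 (-1.06), ZNF483 (-1.05), TFPI2 (-1.05) and the vault RNA VTRNA1-1 (-1.01) were nearer the threshold. VTRNA1-1 lost its call under 3 of 18 settings (-0.87 without siSOX2 replicate 1), GMPR, LRRN1 and ZNF483 under 2 and PLAAT3 under 1. The second probe set of TPTEP1 gave 0.32 (adjusted p = 0.344), and with the mean of its probe sets TPTEP1 stood at -0.52 and was not called.

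The last comparison set the NTera-2 response beside that of 2102Ep, in which 212 genes rose (1.15%) and 152 fell (0.826%). The lines share no array, but line, lipid and amount of siRNA cannot be told apart. Of the 57 genes that rose in NTera-2, 22 rose in 2102Ep, 1 fell and 34 were not called there, although 14 of these passed the adjusted p in the same direction under 2-fold. Of the 64 that fell, 26 fell in 2102Ep, 3 rose and 35 were not called, again with 14 that passed the adjusted p in the same direction. For 47 of the 121 genes the difference between the lines itself was called, against 1.66% of all genes. Of the 47, 13 genes had a higher change in NTera-2, all of them among the genes that rose. The other 34 had a lower one, 11 among the genes that rose and 23 among those that fell. The 121 genes were chosen by their NTera-2 change, which is 1 term of the difference. The larger share than among all genes and these directions thus follow in part from that choice.

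For the 11 genes that rose in NTera-2 with a called lower difference, the rise was larger in 2102Ep. This follows from the sign of the difference. LGR5 changed by 1.18 in NTera-2 and 4.84 in 2102Ep, a difference of -3.66 ± 0.147 (SE; adjusted p = 9.36e-11). For APLNR the difference was -2.50, for CER1 -2.31, for HAND1 -2.26, for MIXL1 -2.25, for LEF1 -2.17, for BMP2 -1.75, for DKK1 -1.51 and for SNAI2 -1.15. EOMES stood apart from these, with 2.04 in NTera-2 and 2.06 in 2102Ep. Its difference was -0.02 ± 0.217 (SE).

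The 13 genes with a higher difference had various roles. FST changed by 1.63 against 0.34 in 2102Ep, a difference of 1.29 (adjusted p = 1.21e-04), and GREM1 by 1.38 against 0.15. SEMA6D (difference 1.30), LGI1 (1.34), SPARCL1 (1.22) and FABP3 (1.73) followed, and DNAJC15 had a difference of 2.13 (adjusted p = 1.62e-04). DNAJC15 was at 9.59 to 10.73 on the control arrays of 2102Ep, against 5.40 to 5.80 on those of NTera-2, so the lines started from different levels.

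Among genes that fell, the ERK phosphatase DUSP6 differed most, with -1.67 in NTera-2 and 1.08 in 2102Ep (difference -2.75 ± 0.215, SE; adjusted p = 3.07e-07). NTS (-1.26 and 1.46) and NRP1 (-1.15 and 1.33) were also called in opposite directions, as was CALB1 among the genes that rose (1.25 and -1.14). CDH6 fell by 1.99 in NTera-2 with -0.17 in 2102Ep, TM4SF18 by 2.24 with 0.02, PPP1R17 by 1.73 with 0.47 and SFRP2 by 1.40 with -0.23. PRDM14 (-1.50 and -2.38), EDIL3 (-2.20 and -2.66), NR5A2 (-1.09 and -1.74) and SAMHD1 (-1.25 and -1.94) fell in both lines, and no difference was called for them, although that of PRDM14 (0.88) passed the adjusted p (0.0118). The larger loss of SOX2 array signal in 2102Ep stands beside all of these values, and its part in the differences was not tested.

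**Figure D4:**
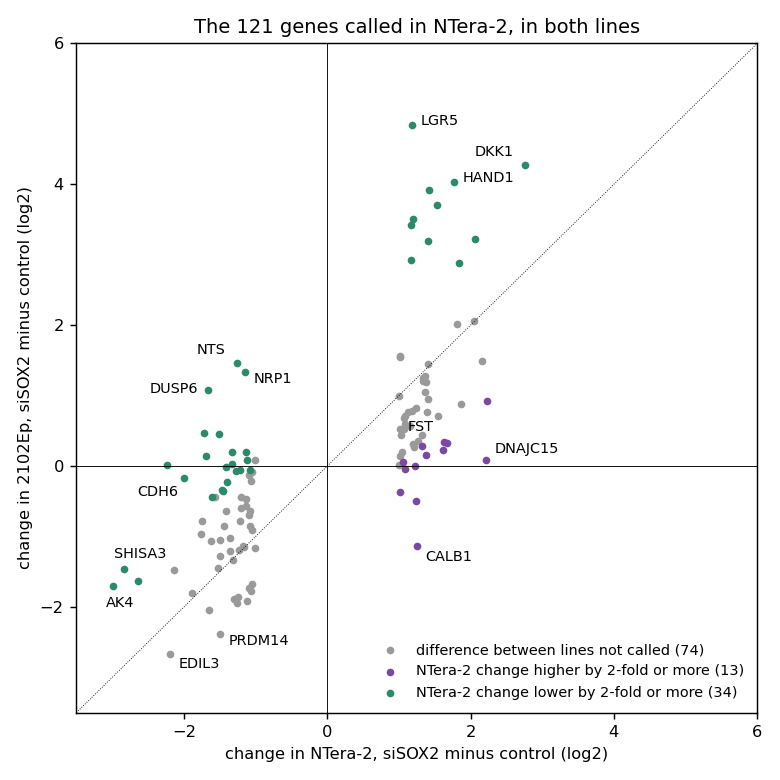
Change in 2102Ep (log2, vertical axis) against change in NTera-2 (log2, horizontal axis) of the 121 genes called in NTera-2, coloured by the test of the difference between lines, with a dotted line where both are equal. For 74 genes no difference was called, for 13 the change was higher in NTera-2 and for 34 lower. LGR5 lies at 1.18 and 4.84, and DUSP6, NRP1 and NTS lie in the quadrant of a fall in NTera-2 with a rise in 2102Ep.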

How the data were processed

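RNA was profiled on Affymetrix Human Gene 1.0 ST arrays, 3 in each of 4 groups, which the labels call biological replicates. By the methods of the study the authors normalized the arrays with RMA (background correction, quantile normalization, median polish), and the deposited table holds log2 values for each probe set. RMA was run in software of the array maker, whose version and log base are not given in the sources used, and the base was taken from the range, 1.57 to 14.98. The methods name a Bioconductor release for the later limma step, which was not used here. RMA can compress changes of weakly expressed genes. The notes of the submitters name limma.

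Of 32321 probe sets 19158 carried 1 gene, 1388 several and 11775 none. The first kind gave 18404 genes (18376 under current RefSeq symbols, 28 under those of the array), each read from its probe set with the highest mean over 12 arrays. Genes without such a probe set were not analysed here.

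A linear model with 1 mean per group was fitted to the 12 arrays (limma 3.58.1, R 4.3.3), and p-values were adjusted by Benjamini-Hochberg over all genes. The spread of each gene was shared by the groups and moderated by empirical Bayes. For a single gene, 3 against 3 arrays allow no exact two-sided permutation p below 0.1. The p-values measure the spread between these arrays, and their number limits the precision. Simulated NTera-2 data (18404 genes) gave back 90 of 100 changes set to 1.2 on the log2 scale and 100 of 100 set to 2, with 0 false calls. A false call needed a 2-fold change, against a median SE of 0.121 in the real data, so the fold threshold left little room for one. The simulated noise was normal and independent between genes and arrays. It held no shift of a whole array like that of siSOX2 replicate 3, so the counts do not cover such a shift. Figures used matplotlib 3.10.9.

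The genes, the 30 lists and the tests were chosen with earlier results of these data known, and role classes after the values were seen. Named were SOX2, each called gene and, from every list, up to 4 genes of lowest adjusted p, with further list members added after their values were seen. Same-numbered NTera-2 arrays did not deviate together (correlations -0.249, -0.206 and 0.136). Alternatives were a replicate block, a fit to the 6 NTera-2 arrays, removal of genes under the median signal, centring on the median, a further quantile step, an intensity trend with robust prior, averaging of probe sets, no fold threshold, and omission of single arrays.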

Additional observations from a re-analysis of the deposited data

Results flagged for a closer look

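The response of 48 named genes differed between NTera-2 and 2102Ep by the test of the difference itself (adjusted p of 0.05 or less, at least 2-fold), and each difference below is the NTera-2 change minus the 2102Ep change on the log2 scale. SOX2 itself is one of them, with 2.49, because it fell less in NTera-2. Among genes that rose in NTera-2, the difference was above 0 for CALB1 (2.39), DNAJC15 (2.13), FABP3 (1.73), TCP11L2 (1.39), PDE1B (1.38), LGI1 (1.34), SEMA6D (1.30), FST (1.29), GREM1 (1.22), SPARCL1 (1.22), PAMR1 (1.14), SAMD3 (1.04) and PKDCC (1.00). It was below 0 for LGR5 (-3.66), APLNR (-2.50), CER1 (-2.31), HAND1 (-2.26), MIXL1 (-2.25), LEF1 (-2.17), PRTG (-1.79), BMP2 (-1.75), DKK1 (-1.51), SNAI2 (-1.15) and WLS (-1.03).

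Among genes that fell in NTera-2 it was below 0 for DUSP6 (-2.75), NTS (-2.72), NRP1 (-2.48), TM4SF18 (-2.26), PPP1R17 (-2.20), FEZ1 (-1.96), POSTN (-1.84), CDH6 (-1.82), RHD (-1.53), ANGPT1 (-1.40), SHISA3 (-1.37), PNMA2 (-1.36) and BHLHE41 (-1.33). The same held for AK4 (-1.29, by the probe set used), OR52A1 (-1.21), GRPR (-1.20), SFRP2 (-1.17), GPR141 (-1.17), MAS1 (-1.17), CCDC141 (-1.12), ADM (-1.10), ST6GAL2 (-1.02) and TMT1A (-1.01).

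Probe sets outside the gene comparison also passed the same thresholds in NTera-2. Of 1388 probe sets annotated with several genes 6 were called, 1 higher and 5 lower, and of 11775 with no gene 26 were called, 5 higher and 21 lower.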

How the results depend on the processing

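Of the 121 called genes 93 kept their call under each of 18 alternatives (those listed under the processing except the filter on dim genes, which removes genes, and the threshold without a fold), and 28 lost it under at least 1, none with a change of sign. The count without genes below the median signal was 66, because 55 of the 121 were not tested there, and 34 list members and 25 differences between lines were then called. With no fold threshold 909 genes and 160 list members passed. Leaving out 1 array gave 121 to 129 called genes, 44 to 52 differences between lines, 56 to 59 list members and a change of SOX2 of -0.67 to -0.61. The replicate block changed no call (121 genes), and the same-numbered arrays share no stated culture. The split of 57 rises and 64 falls became 47 and 76 on median centring and 47 and 69 with quantile normalization again. The leukocyte gene MS4A1, not called, turned from 0.15 to -0.047 without NTera-2 siSOX2 replicate 3, the lowest value when 1 array was left out, and the highest was 0.28 without siSOX2 replicate 2. The number of arrays limits the precision, and genes close to 2-fold pass or fail by small shifts. The cause of the other shifts was not tested.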

Other observations

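UBD, a ubiquitin-like modifier induced by interferon and TNF, was the only gene with at least a 2-fold change that did not pass the adjusted p (2.80, adjusted p = 0.502). It was chosen after its values were seen. On the siSOX2 arrays UBD stood at 4.20, 14.69 and 5.88, and on the control arrays at 6.18, 4.01 and 6.17, so that 1 array, siSOX2 replicate 2, carried the whole change. The other siSOX2 arrays lay within the range of the controls.

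Some called genes were neighbours. Along the chromosomes, 11 pairs of called genes lay with fewer than 10 measured genes between them, of which 8 moved in the same direction and 3 in opposite directions. In 3 pairs no measured gene lay between. These were KITLG and DUSP6, SLCO5A1 and PRDM14, and AP1S2 and GRPR, and both members fell in each of them. RGS5 with RXRG rose together, NTS with KITLG, TRIB2 with VSNL1, SFRP2 with LRAT, and ENTREP1 with CFAP95 fell together, and GRHL3 with RHD, PRDM14 with EYA1, and SVEP1 with ZNF483 moved in opposite directions. Over all genes 0.657% were called. How many such pairs the same number of genes would form at random was not counted, and no test of neighbourhood was made. The pairs thus do not show that called genes cluster.

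Genes just under the fold threshold in NTera-2, chosen after their values were seen, included the hyaluronan synthase gene HAS2 (0.99), the epithelial keratin gene KRT19 (0.98), the CNTF receptor gene CNTFR (0.98) and ARRDC3 (0.999) on the higher side. On the lower side were the phosphodiesterase gene PDE5A (-0.998) and the calcium release channel genes ITPR2 (-0.997) and RYR2 (-0.98). All of them passed the adjusted p, and their siSOX2 and control arrays did not overlap.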
